A study of Homo sapiens with 6 samples.

Results

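FGR, LYN, SRC, FYN, YES1, SYK, BTK and CSK are 8 genes for tyrosine kinases without a transmembrane receptor domain, and they were taken by name out of the 26704 genes measured in SKM-1 cells. SKM-1 is an established human cell line of acute myeloid leukaemia. Bulk messenger RNA was sequenced from 6 libraries of this line. The VEM group was 1 library of cells given VEM, which the series' title gives as vemurafenib, an inhibitor of the kinase BRAF. The VEM+BOR group was 1 library of cells given VEM together with BOR. The BOR group was 2 libraries of cells given BOR alone, called BOR 1 and BOR 2 here, and the labels do not spell that abbreviation out. The untreated group was 2 libraries of cells with no treatment, called untreated 1 and untreated 2. The labels hold no dose and no length of treatment, every group is the same line, and whether the libraries of 1 group were grown apart is not stated, so the p-values cover no more than library-to-library variation, possibly of technical origin.

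SRC-family kinases are enzymes anchored at the inner face of the cell membrane. In myeloid cells FGR and LYN are among the members known for starting the signal of Fc receptors and integrins: they phosphorylate tyrosines of an ITAM, a short motif on receptor adaptors such as TYROBP and FCER1G. SYK then docks on that motif, and BTK, of the related TEC family, acts further down, while CSK holds SRC-family kinases inactive by phosphorylating a tyrosine in their tail. FYN, SRC and YES1 are family members found in many tissues.

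The libraries were of like depth, with 17252404 to 18507606 assigned reads each, and 1 of them stood apart. BOR 2 correlated with the others at 0.860 to 0.879, while the 5 other libraries correlated with each other at 0.964 to 0.985. Scaling to library totals shifted the median gene of BOR against untreated by -0.26 and of VEM+BOR against BOR by 0.26 on the log2 scale. Changes of FGR, LYN, FYN and SYK that use BOR 2 are also given without it.

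FGR rose 9.45-fold in the VEM+BOR library over the mean of the untreated libraries, and it was the only one of the 7 members tested that passed the threshold in any of the 5 comparisons. The threshold is a limma p-value under 0.05 after Benjamini-Hochberg adjustment over all genes tested, and log2 changes are on the scale log2(value + 1). That call did not hold in every fit tried. LYN, SRC, FYN, SYK, BTK and CSK did not pass in any comparison, and YES1 was too low to test.

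Promoter windows are shown for members whose levels differ in pattern: FGR, which rose, SYK, which lay higher in both VEM-containing libraries than in both untreated libraries, and BTK, which did not. The windows are from RefSeq on GRCh38.p14, with 250 bases before and 50 bases after an annotated start, and 6 of the 8 members matched that table, with 13 windows in all. Capitals mark the PU box, searched as GAGGAA and on the other strand as TTCCTC, the core bound by the myeloid transcription factor PU.1. The windows are written 5′ to 3′ along the gene: FGR at chr1:27635136-27635435 and chr1:27626548-27626847 on the minus strand, SYK at chr9:90801569-90801868 on the plus strand and BTK at chrX:101390747-101391046 on the minus strand.
FGR window 1: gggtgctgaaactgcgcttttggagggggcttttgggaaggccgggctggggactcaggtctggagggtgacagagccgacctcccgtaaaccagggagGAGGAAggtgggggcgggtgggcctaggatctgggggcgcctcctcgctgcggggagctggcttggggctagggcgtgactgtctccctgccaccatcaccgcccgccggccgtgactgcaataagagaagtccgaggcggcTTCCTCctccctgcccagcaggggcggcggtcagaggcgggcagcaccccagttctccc
FGR window 2: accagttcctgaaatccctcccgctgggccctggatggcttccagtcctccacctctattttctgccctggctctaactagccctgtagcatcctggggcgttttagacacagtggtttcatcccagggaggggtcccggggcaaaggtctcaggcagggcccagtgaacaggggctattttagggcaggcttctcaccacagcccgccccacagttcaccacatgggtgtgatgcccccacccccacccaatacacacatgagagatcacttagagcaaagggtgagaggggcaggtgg
SYK window 2: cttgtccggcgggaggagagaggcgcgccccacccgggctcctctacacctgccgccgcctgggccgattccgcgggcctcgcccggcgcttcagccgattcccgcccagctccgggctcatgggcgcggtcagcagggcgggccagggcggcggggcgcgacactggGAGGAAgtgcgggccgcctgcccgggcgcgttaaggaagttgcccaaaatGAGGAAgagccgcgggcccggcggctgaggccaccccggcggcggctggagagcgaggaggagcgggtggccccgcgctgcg
BTK window 1: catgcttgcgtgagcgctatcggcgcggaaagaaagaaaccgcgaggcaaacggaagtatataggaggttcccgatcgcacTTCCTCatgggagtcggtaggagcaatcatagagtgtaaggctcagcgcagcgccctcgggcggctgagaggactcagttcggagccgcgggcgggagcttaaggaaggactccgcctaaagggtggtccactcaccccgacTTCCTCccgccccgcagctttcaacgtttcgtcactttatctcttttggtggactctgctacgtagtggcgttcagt
The first FGR window held 2 PU boxes, at 151 and 9 bases before the start, and the second FGR window held 0. SYK window 2 held 2, at 82 and 32 bases before the start, and BTK window 1 also held 2, at 169 and 27 bases before it. Of the 13 member windows 6 held the motif, and 27.9% of the 35116 windows of the whole table did. Among windows not shown, FYN windows 1 to 4 held 0 boxes each, though FYN also lay higher in both VEM-containing libraries. SYK window 1 held 0 and SYK window 3 held 1. BTK window 2 and the CSK window held 1 each, and the YES1 window held 0. A match of 6 letters describes the sequence and does not show binding.

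FGR (ENSG00000000938) spans bases 27612064 to 27635277 of the minus strand of chromosome 1, in the coordinates of the files, which equal those of GENCODE 29 on GRCh38 for all members. Values below are normalised read counts on a common scale, that is, the deposited values of all libraries brought to 1 scale over the 23519 genes that all tables hold. The FGR count was 623 in the VEM library and 1600.4 in the VEM+BOR library. BOR 1 had 414 and BOR 2 had 165, while untreated 1 had 229 and untreated 2 had 109. Both libraries that received VEM were above all other libraries, and the VEM+BOR library was 2.57 times the VEM library. The BOR libraries overlapped the untreated ones, since BOR 2 lay between untreated 1 and untreated 2. Replicates of a group were far apart for this gene: BOR 1 was 2.50 times BOR 2, and untreated 1 was 2.10 times untreated 2. These values rest on 1768 reads in the VEM+BOR library, 453 and 124 in the BOR libraries and 262 and 113 in the untreated libraries, so counting error is small beside that spread.

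**Figure D1:**
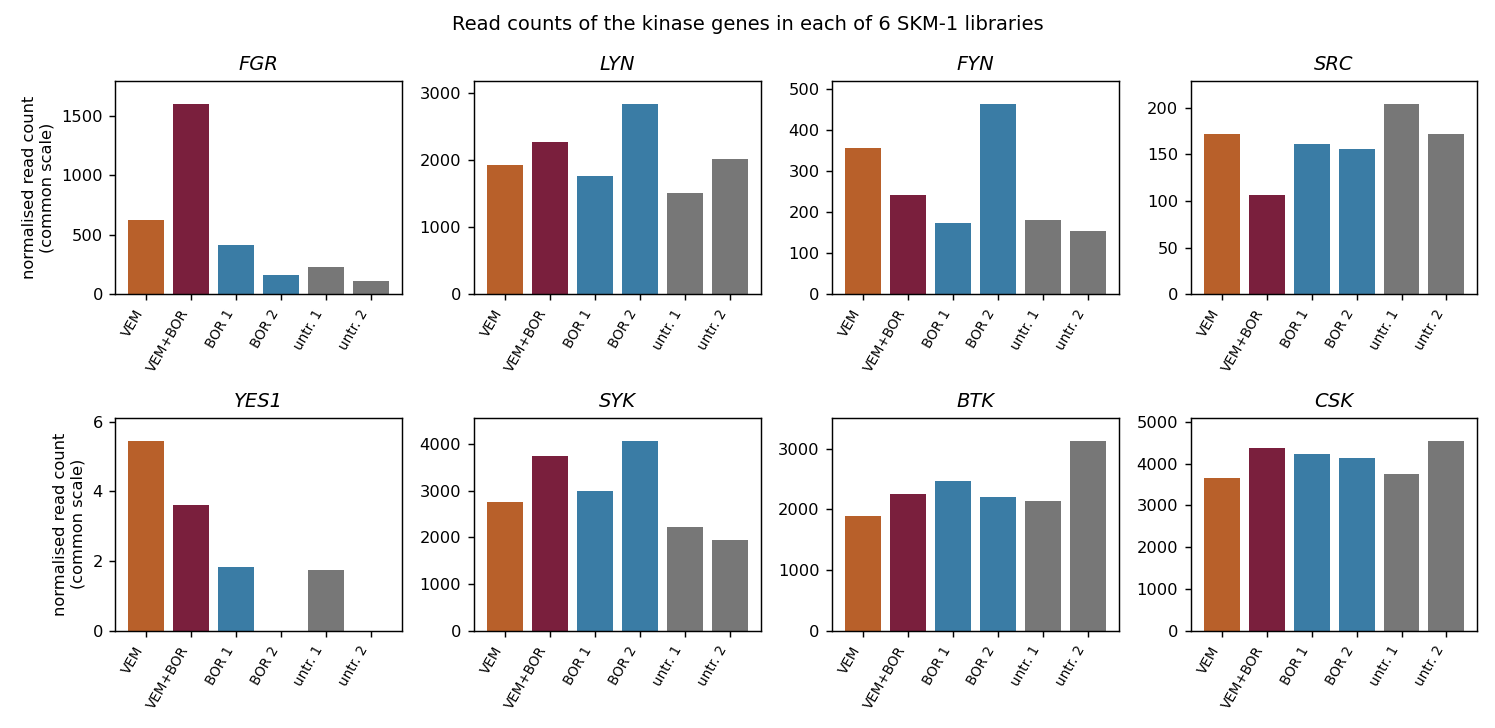
Normalised read counts on the common scale (vertical axes from 0, a separate scale for each gene) of the 8 members, with 1 bar for each library. FGR reaches 1600.4 in VEM+BOR and 623 in VEM, above the 4 other libraries, while CSK stays between 3646 and 4549 in all 6.

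Against untreated cells, FGR was 3.32 higher on the log2 scale in the VEM+BOR library (standard error 0.46, 95% interval 2.36 to 4.27, limma adjusted p = 0.00224). FGR was thus 1 of 7 members called, where 0.192% of the 15606 genes tested were called in either direction and 0.173% were called higher. The members were chosen with earlier results of these data known. Member counts beside such shares, here and below, are therefore description and no test of the members as a set. At an unadjusted p under 0.05 there were 2 of 7 members, FGR and SYK, against 3.01% of genes. Both count tests called it too, edgeR at 3.19 (adjusted p = 3.02e-13, with 0.556% of genes called) and DESeq2 at 3.21 (adjusted p = 4.24e-07, with 0.409% of genes called), and the authors' deposited table gives 3.23 with an adjusted p of 4.55e-07. With a single VEM+BOR library the residual spread came from the 2 untreated libraries alone, and that library is assumed to vary as they do. In every fit limma also drew each gene's spread toward a trend over all genes. Here that trend had a weight of 19.69 degrees of freedom, against 1 for the gene's own spread. The FGR standard error thus rests mostly on other genes, while untreated 1 was 2.10 times untreated 2 for FGR. The call was lost when all 6 libraries shared 1 estimate of spread (3.33, limma adjusted p = 1.0), when no filter on low values was applied (limma adjusted p = 0.967), and without untreated 1 (3.86, limma adjusted p = 1.0) or untreated 2 (2.80, limma adjusted p = 1.0), where the spread had to come from the BOR pair. With the remaining libraries in 1 fit it held without BOR 1 (limma adjusted p = 0.000121, with 0.337% of genes called) and without BOR 2 (limma adjusted p = 0.000611, with 0.259% called), where the spread again came from the untreated pair alone.

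In the VEM library alone FGR was 1.96 higher than in untreated cells (standard error 0.49, 95% interval 0.95 to 2.98), which did not pass the threshold (limma adjusted p = 0.367). None of the 7 members was called in that comparison, where 0.0446% of genes were, and 2 of the 7, FGR and FYN, had an unadjusted p under 0.05, against 2.54% of genes. The authors' deposited table gives FGR a log2 change of 1.87 with an adjusted p of 0.251. Scaled to library totals, an alternative chosen after seeing the data, the FGR change was 2.02 and passed (limma adjusted p = 0.0426), as did 0.255% of genes.

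Taking VEM and VEM+BOR as 1 group of 2 libraries, FGR was 2.65 higher than in the untreated libraries (standard error 0.46, 95% interval 1.61 to 3.68, limma adjusted p = 0.0708). That left 0 of 7 members called, against 0.22% of genes, and 3 of 7 (FGR, FYN and SYK) had an unadjusted p under 0.05, against 6.25% of genes. Each fit that left out 1 of these libraries had an arm of 1 library, assumed to vary like the remaining pair. Without untreated 1 the FGR change was 3.18 (limma adjusted p = 0.000110, with 5.26% of genes called) and without untreated 2 it was 2.12 (limma adjusted p = 0.0232, with 0.969% called), both with the spread taken from VEM and VEM+BOR, which are different treatments. Without the VEM library it was 3.33 (limma adjusted p = 7.44e-05, with 0.305% called) and without the VEM+BOR library 1.97 (limma adjusted p = 0.165), both with the spread of the untreated pair.

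BOR alone gave no call. FGR was 0.72 higher in the BOR libraries than in the untreated libraries (standard error 0.69, 95% interval -0.95 to 2.39, limma adjusted p = 0.968). Of the 7 members 0 were called and 0 had an unadjusted p under 0.05, where limma called 0% of all genes and 0.247% had such a p; edgeR called 0 genes and DESeq2 35 (0.226%), none of them a member. Without BOR 2 the FGR change was 1.38, and without BOR 1 it was 0.064. Without BOR 1 the comparison sets BOR 2, the library that stood apart, against the untreated pair, and 26.1% of all genes passed, FYN among them at 1.47 (limma adjusted p = 0.0273).

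The VEM+BOR library had 2.61 more FGR on the log2 scale than the BOR libraries (standard error 0.83, 95% interval 0.59 to 4.62, limma adjusted p = 0.999). Limma called 0% of genes in this comparison and 0 of the 7 members, with 1 of 7, FGR, at an unadjusted p under 0.05, against 0.279% of genes; edgeR called 0 genes and DESeq2 3 (0.0194%), none of them a member. Without BOR 1 the FGR change was 3.27 (limma adjusted p = 5.34e-05), where 23.4% of all genes passed against BOR 2 alone, and without BOR 2 it was 1.95 (limma adjusted p = 0.434). In both fits the spread came from the untreated pair. The departure of VEM+BOR from the sum of the VEM and BOR changes, a fit over all 6 libraries added after seeing the data, was 0.64 for FGR (standard error 1.17, 95% interval -2.20 to 3.48, limma adjusted p = 1.0). An interval that wide holds both a lower and a higher value than the sum. Without BOR 1 the departure was 1.30 and without BOR 2 it was -0.019.

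**Figure D2:**
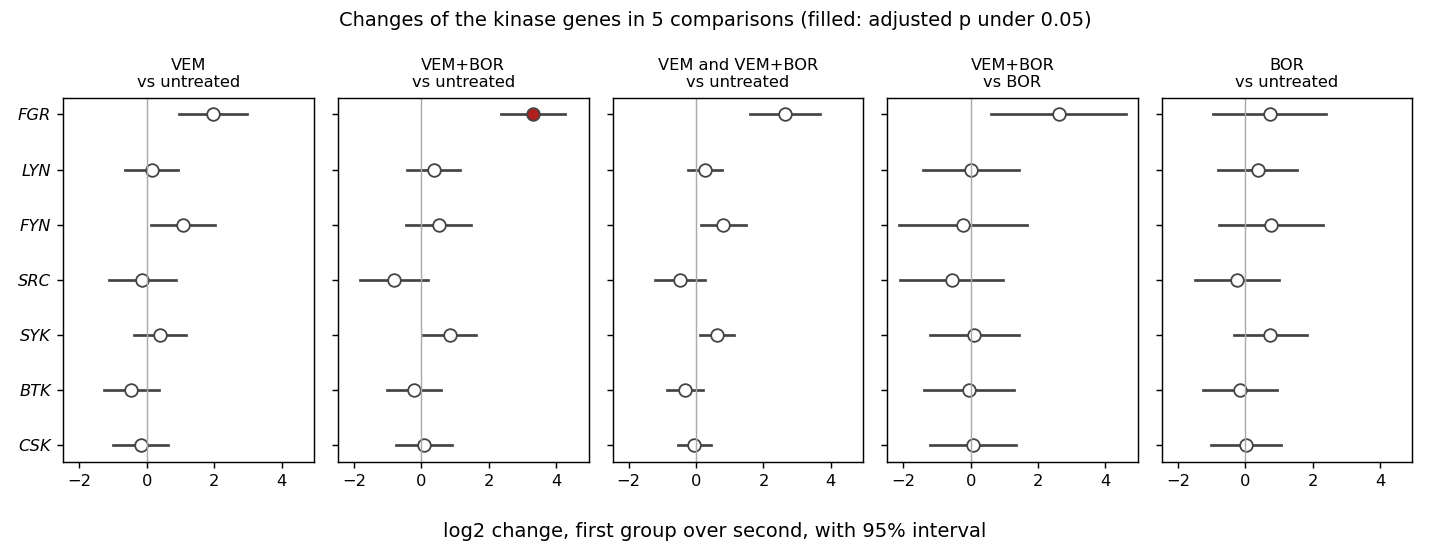
Log2 change of each tested member (points) with its 95% interval (lines) in 5 comparisons, first-named group over second, 0 marking no difference. Only the FGR point at 3.32 in VEM+BOR against untreated is filled, meaning an adjusted p under 0.05; the intervals are wider in the 2 comparisons that use the BOR libraries for the spread.

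LYN (chromosome 8, ENSG00000254087) is both an activating and an inhibitory kinase in myeloid cells. The LYN count was 1925 in the VEM library, 2264 in the VEM+BOR library, 1763 and 2833 in the BOR libraries and 1506 and 2009.6 in the untreated libraries. VEM lay between the untreated libraries, VEM+BOR was above both, and BOR 2 was the highest. Its change was 0.37 in VEM+BOR against untreated (95% interval -0.41 to 1.15) and 0.14 in VEM against untreated (95% interval -0.65 to 0.92), where it turned to -0.062 without untreated 1. In BOR against untreated it was 0.36, and 0.023 without BOR 2.

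FYN (chromosome 6, ENSG00000010810) acts beside LYN in Fc receptor signalling of mouse mast cells. Its count was 356 in the VEM library, 241 in the VEM+BOR library, 174 and 464 in the BOR libraries and 182 and 154 in the untreated libraries. Here VEM was above VEM+BOR, the reverse of FGR, and both were above the untreated libraries. The FYN change was 1.08 in VEM against untreated (standard error 0.46, 95% interval 0.12 to 2.03, limma adjusted p = 1.0) and 0.51 in VEM+BOR against untreated (95% interval -0.46 to 1.48). BOR 1 was 0.376 times BOR 2, so the BOR mean of 319 ± 205 (SD, n = 2) describes neither library. The FYN change in BOR against untreated was 0.77, and 0.063 without BOR 2.

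SRC (ENSG00000197122), the founding member of the family, lies at bases 37344685 to 37406050 of chromosome 20. Its count was 172 in the VEM library, 107 in the VEM+BOR library, 161 and 156 in the BOR libraries and 204 and 172 in the untreated libraries. SRC was the member whose treated libraries all lay below both untreated ones, in the VEM library by a margin of under 1 count. The share of all genes with that order was not counted. Scaled by library total and gene length that order was lost, with 1.69 RPKM in VEM and 1.54 in BOR 1 against 2.07 and 1.53 in the untreated libraries. The largest difference was -0.82 in VEM+BOR against untreated (standard error 0.49, 95% interval -1.84 to 0.20, limma adjusted p = 1.0). YES1 (chromosome 18, ENSG00000176105) had a count of 5.46 in the VEM library, 3.62 in the VEM+BOR library, 1.83 and 0 in the BOR libraries and 1.75 and 0 in the untreated libraries. Between 0 and 4 reads lay behind the YES1 values of the 5 libraries for which reads were recovered, and 0 reads still allow up to 0.162 RPM (reads per 1000000 assigned reads) in BOR 2 and 0.166 in untreated 2, covering counting error only. Of its exon bases, 154 are shared with an antisense gene that the unstranded library cannot tell apart, and no fold is given.

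SYK (chromosome 9, ENSG00000165025), the kinase that docks on phosphorylated ITAMs, was the only member with all treated libraries above both untreated ones. The share of all genes with that order was not counted, so how unusual it is cannot be told. The SYK count was 2748 in the VEM library, 3740.3 in the VEM+BOR library, 2981 and 4068 in the BOR libraries and 2221 and 1947 in the untreated libraries. SYK was 0.83 higher in VEM+BOR than in untreated cells (standard error 0.37, 95% interval 0.053 to 1.61, limma adjusted p = 1.0) and 0.75 higher in BOR than in untreated cells (standard error 0.44, 95% interval -0.33 to 1.82, limma adjusted p = 0.968), the second being 0.52 without BOR 2. The VEM change was 0.40 (95% interval -0.38 to 1.17). None of these passed the threshold.

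BTK (chromosome X, ENSG00000010671) is a TEC-family kinase of B cells and myeloid cells. Its count was 1892 in the VEM library, 2252 in the VEM+BOR library, 2465 and 2198 in the BOR libraries and 2146 and 3133 in the untreated libraries. VEM was below both untreated libraries and the other treated libraries lay between them. The BTK change was -0.46 in VEM against untreated (95% interval -1.27 to 0.35) and -0.22 in VEM+BOR against untreated (95% interval -1.02 to 0.59), the second turning to 0.070 without untreated 2. CSK (chromosome 15, ENSG00000103653), the inhibitory kinase, had a count of 3646 in the VEM library, 4361 in the VEM+BOR library, 4233 and 4140.2 in the BOR libraries and 3751 and 4549 in the untreated libraries. On the common scale it varied least of the members, its highest library being 1.25 times its lowest, and its change in VEM+BOR against untreated was 0.065 (95% interval -0.77 to 0.90). The sign of the CSK change in BOR against untreated, 0.022, turned with TMM factors, library totals and edgeR.

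Counting only which groups failed to overlap, the VEM library was above both untreated libraries for 3 of 7 members (FGR, FYN and SYK), as for 30.3% of genes, and below both for 3 (BTK, CSK and SRC), as for 27.6%. The VEM+BOR library was above for 4 of 7 (FGR, FYN, LYN and SYK), against 30.1% of genes, and below for 1, SRC, against 27.9%. FGR, FYN and SYK were above both untreated libraries in both VEM-containing libraries, 3 of 7 members where 19.4% of all genes tested were. SRC, 1 of 7, was below in both, where 14.4% of genes were. SYK was the 1 member of 7 above both untreated libraries in both BOR libraries, against 11.7% of genes, and SRC the 1 below, against 8.24%. These shares were not tested. For all treated libraries at once, the order given for SYK, SRC, FCER1G, PAG1 and BLK, no share over all genes was counted. Nor was a share counted for both VEM-containing libraries above all other libraries, the order given for FGR and CLEC5A.

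Per gene length, as reads per kilobase and per 1000000 assigned reads (RPKM), CSK was the highest member in every library, from 36.7 in BOR 2 to 57.5 in VEM+BOR. SYK was at 43.2 RPKM in VEM+BOR and 33.6 in VEM, against 28.0 and 21.4 in the untreated libraries. BTK ranged from 19.5 RPKM in BOR 2 to 39.3 in untreated 2. LYN kept close levels, 19.8 RPKM in VEM, 22.1 in VEM+BOR, 17.6 and 18.6 in BOR and 16.01 and 18.6 in untreated cells, so the high LYN count of BOR 2 on the common scale was not high as RPKM. FGR stood at 11.4 RPKM in VEM, 27.8 in VEM+BOR, 7.37 and 1.93 in BOR and 4.34 and 1.80 in untreated cells. In VEM+BOR its level was above that of LYN, and in the 5 other libraries it was below. FYN (1.19 to 3.06 RPKM) and SRC (0.977 to 2.07 RPKM) were low in every library, their ranges overlap, and YES1 was at most 0.0682 RPKM.

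Summed over the 5 members that are SRC-family kinases (FGR, LYN, FYN, SRC and YES1), the level was 36.1 RPKM in VEM and 52.8 in VEM+BOR, with 28.02 and 24.0 in BOR, against 24.1 and 23.1 in the untreated libraries. FGR made up 31.7% of that sum in VEM and 52.6% in VEM+BOR. Its share was 26.3% in BOR 1 and 8.04% in BOR 2, and 18.04% in untreated 1 and 7.79% in untreated 2. Without FGR the sum was 24.7 RPKM in VEM and 25.05 in VEM+BOR, with 20.7 and 22.1 in BOR, against 19.7 and 21.3 in the untreated libraries. Most of the difference in the sum between VEM+BOR and the untreated libraries lay in FGR. The level of CSK over the sum of the 5 kinases was 1.41 in VEM and 1.09 in VEM+BOR, with 2.05 and 1.53 in BOR, against 2.24 and 2.47 in the untreated libraries. In bulk RNA, fewer cells with a transcript and less of it per cell cannot be told apart.

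**Figure D3:**
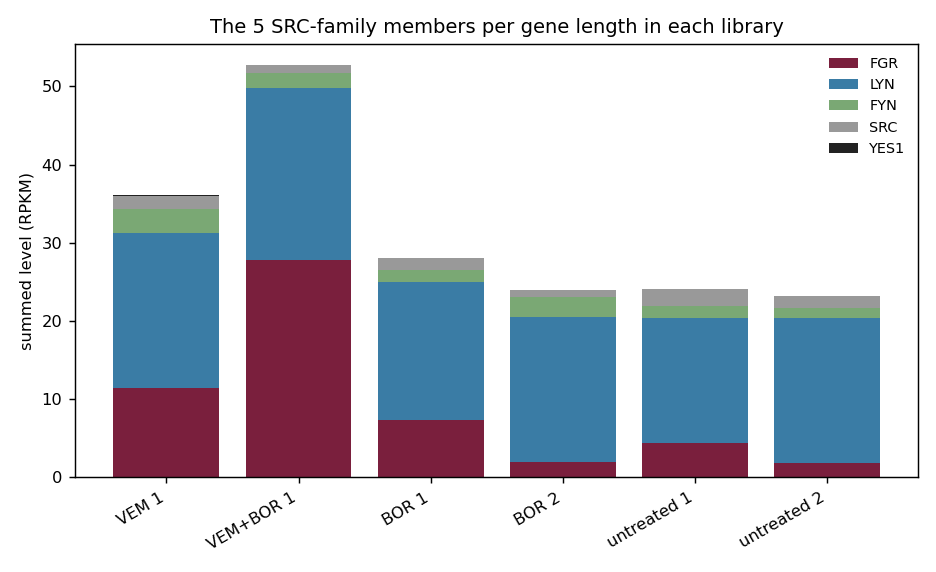
Summed level of the 5 SRC-family members (RPKM, vertical axis from 0) in each of the 6 libraries, stacked by gene. The FGR layer is 27.8 RPKM of 52.8 in VEM+BOR and 1.80 of 23.1 in untreated 2, while the LYN layer stays between 16.01 and 22.1 in all 6 libraries.

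The rest of the pathway was read from 6 lists with 105 genes, not all of which had a row and a level high enough to test. Across all 5 comparisons limma called 1 of those tested, CLEC5A. That call was in the VEM-containing libraries against untreated, where limma called 0.22% of all genes tested. The calls that edgeR and DESeq2 made are given beside their genes. CLEC5A, a receptor that signals through TYROBP, had a count of 154 in VEM and 189 in VEM+BOR, with 41.1 and 49.4 in BOR, against 24.5 and 32.9 in the untreated libraries. Both VEM-containing libraries were above all others. Over both libraries CLEC5A was 2.54 higher than in untreated cells (standard error 0.37, 95% interval 1.70 to 3.39, limma adjusted p = 0.0459), close to the threshold: the call was lost without VEM (2.69, limma adjusted p = 0.0658) and without VEM+BOR (2.39, limma adjusted p = 0.354), and with all 6 libraries in 1 fit (limma adjusted p = 1.0). In VEM+BOR against untreated CLEC5A was 2.68 higher and missed the threshold (limma adjusted p = 0.125), but passed with TMM factors (limma adjusted p = 0.0192), in edgeR (2.67, adjusted p = 0.00548) and in DESeq2 (2.695, adjusted p = 0.0423).

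Among the 25 activating receptors and ITAM adaptors, 12 were tested in VEM+BOR against untreated, and limma called 0 there. EdgeR called 2 (CLEC5A and TYROBP), against 0.556% of all genes, and DESeq2 1 (CLEC5A), against 0.409%. The median log2 change of the 12 was 0.71, against 0.01 over all genes. The list median was 0.25 for VEM over untreated (12 tested). For BOR over untreated it was 1.004 (14 tested, 0.035 over all genes), a value that uses BOR 2. The shift of this list was thus not confined to the libraries with high FGR. TYROBP, the ITAM adaptor of many myeloid receptors, had a count of 15.5 in VEM and 135 in VEM+BOR, with 177 and 179 in BOR, against 21.9 and 14.5 in the untreated libraries. It was high in the 3 libraries with BOR and at the untreated level in VEM, unlike FGR. TYROBP was 2.84 higher in VEM+BOR than in untreated cells (limma adjusted p = 0.175, and 0.0361 with TMM factors; edgeR adjusted p = 0.00999; DESeq2 adjusted p = 0.104) and 3.25 higher in BOR than in untreated cells (limma adjusted p = 0.968; DESeq2 adjusted p = 0.00701). FCER1G, the adaptor of the IgE and IgG receptors, had a count of 158 in VEM, 238 in VEM+BOR, 139.8 and 265 in BOR and 86.7 and 71.6 in untreated cells, all treated libraries being above both untreated ones. OSCAR, a collagen receptor that signals through FCER1G, was 1.04 higher in the VEM-containing libraries than in untreated cells (limma adjusted p = 0.510).

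The inhibitory receptors numbered 16, with 9 tested in VEM+BOR against untreated, 0 called and a median log2 change of 0.21. FCGR2B, the inhibitory IgG receptor, was at 0 reads in VEM+BOR, which allows up to 0.164 RPM. That bound is 6.52-fold lower than the mean of 0.748 and 1.39 RPM in untreated cells. It covers only the counting error of the VEM+BOR library, and the untreated values are themselves low. The change did not pass (limma adjusted p = 0.281). FCGR2B was at 0.116 RPM in VEM, 0.339 in BOR 1 and 8.37 in BOR 2. CD300A had a count of 929 in VEM and 1169 in VEM+BOR, with 509 and 11519 in the BOR libraries, against 578 and 550.5 in the untreated libraries. PECAM1 was low and mixed, at 4.55 in VEM, 27.2 in VEM+BOR, 10.05 and 48.0 in BOR and 28.0 and 6.77 in untreated cells.

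A list of 22 genes taken as brakes on SRC-family and SYK signalling had 21 tested in VEM+BOR against untreated. Of these 0 were called, and the median log2 change was 0.18. The list also holds phosphatases, among them PTPRC, PTPRA, PTPRJ and PTPRE, that can activate SRC-family kinases. Its median therefore mixes opposing actions. PAG1, the membrane adaptor that brings CSK to its targets, had a count of 203 in VEM, 316 in VEM+BOR, 139 and 328 in BOR and 129 and 76.4 in untreated cells, every treated library lying above both untreated ones. PAG1 was 1.65 higher in VEM+BOR than in untreated cells (standard error 0.51, limma adjusted p = 0.501). The phosphatase gene PTPRE was 0.79 higher (limma adjusted p = 1.0) and PTPN22 0.84 higher (limma adjusted p = 1.0) in the same comparison, and leaving out 1 untreated library gave 0.48 to 1.123 for PTPRE and 0.31 to 1.39 for PTPN22. SOCS1, an inhibitor of cytokine signalling named here after its value was seen, was called by DESeq2 in BOR against untreated (4.28, adjusted p = 0.0390) and not by limma (2.81) or edgeR; without BOR 2 the limma change was 0.32. Downstream adaptors and effectors numbered 35, with 33 tested in VEM+BOR against untreated, 0 called and a median log2 change of 0.15. PIK3CG, the gamma catalytic subunit of PI3-kinase, had a count of 1419 in VEM and 1481 in VEM+BOR, against 942 and 255 in untreated cells, and was 1.58 higher in VEM+BOR (limma adjusted p = 0.615; limma adjusted p = 0.0164 with TMM factors and 0.0161 with library totals; edgeR adjusted p = 0.0800; DESeq2 adjusted p = 1.0). The untreated libraries lay far apart for PIK3CG, and its change was 2.53 without untreated 1 and 0.65 without untreated 2. RASGRP4, an exchange factor for RAS, had a log2 change of -1.07 in VEM+BOR against untreated (limma adjusted p = 1.0), and -1.60 to -0.53 on leaving out 1 untreated library. LAT, mainly a T-cell adaptor, was under 15 in every library.

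Of 4 relatives of SYK and BTK (ZAP70, TEC, BMX and TXK), 2 were tested in VEM+BOR against untreated, BMX at 1.09 (0.65 to 1.55 on leaving out 1 untreated library) and TEC at 0.20 (0.098 to 0.32), and 0 were called. Of 3 SRC-family genes outside the 8 (LCK, BLK and FRK), 2 were tested there, BLK at -1.14 and FRK at 0.12, which turned to -0.16 in edgeR and -0.14 in DESeq2. BLK, a kinase of B cells, had a count of 90.0 in VEM, 54.3 in VEM+BOR, 82.2 in BOR 1 and 14.7 in BOR 2. Untreated 1 had 147 and untreated 2 had 97.7, so every treated library lay below both. As RPKM that order was lost, with BLK at 1.13 in VEM and 1.10 in untreated 2. The BLK change of the BOR group over the untreated group was -1.74 (95% interval -3.95 to 0.47, limma adjusted p = 0.968).

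**Figure D4:**
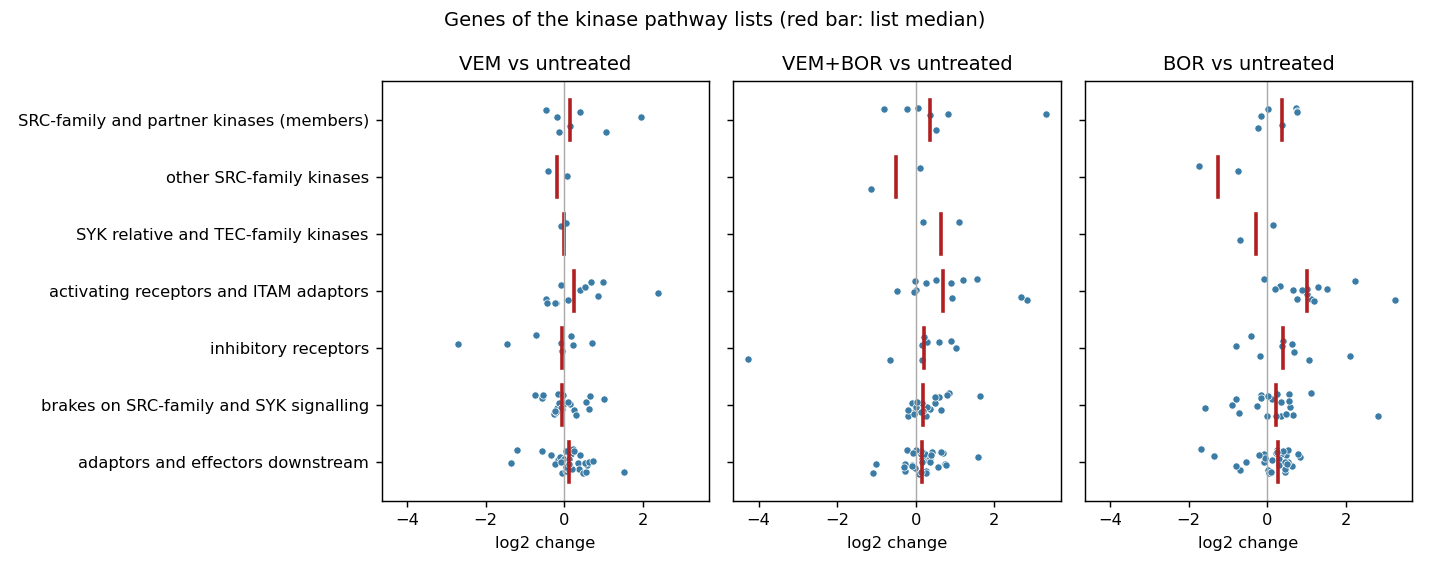
Log2 change of each tested gene (points, spread vertically for legibility) of the 8 members and the 6 pathway lists, in VEM, VEM+BOR and BOR against untreated, with the list median as a red bar. FGR is the rightmost point of the members at 1.96 in VEM and 3.32 in VEM+BOR. The leftmost inhibitory receptor in VEM+BOR, FCGR2B, has 0 reads there, so its plotted value is a fitted one and no bound.

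Among 11288 other protein-coding genes with a mean count of at least 50, the 5 with the pattern most like FGR over the 6 libraries were CELF1 (Pearson r = 0.997), LRRFIP2 (0.993), TSPAN14 (0.990), IPCEF1 (0.989) and LANCL3 (0.989), as a description of 6 libraries that share their untreated pair. Without BOR 2 their r with FGR stayed between 0.988 and 0.997, but other genes came ahead of them. In that order CELF1 ranked 5, LRRFIP2 22, TSPAN14 6, IPCEF1 19 and LANCL3 37. They followed the order of FGR with smaller swings: CELF1, an RNA-binding protein gene, spanned 0.95 on the log2 scale and LANCL3 spanned 2.51, where FGR spanned 3.86. CELF1 had a count of 4436 in VEM and 5597 in VEM+BOR, with 4194 and 3205 in BOR, against 3542 and 2894 in the untreated libraries. SYK had r = 0.487 with FGR over 6 libraries and 0.963 without BOR 2, so the SYK likeness turned on that library.

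Of 14 markers of the labelled myeloid lineage, 13 had a row and none of these was at 0 in any library. Their summed level was 3977 RPM in VEM and 3175 in VEM+BOR, with 6549 to 7929 in BOR, against 7984 and 8001 in untreated cells, so the VEM-containing libraries, highest in FGR, were lowest in this sum, which PRTN3 led. Single markers differed. MPO was 412 RPM in VEM and 285 in VEM+BOR, against 1212 and 873 in untreated cells. ELANE, CEBPA and CSF1R were also lower in both. SPI1 was 342 and 416, against 349 and 409, and CD33, CSF3R and LYZ likewise showed no such fall. The part of the marker change in the FGR result was not tested. Markers of other cells were low. The B-cell markers summed to 13.3 and 8.998 RPM in the VEM-containing libraries, 9.94 to 13.2 in BOR and 7.21 to 17.6 in untreated cells, with 5 of 6 genes having a row. T- and NK-cell markers summed to 37.0 and 41.3, 14.3 to 40.2 and 15.3 to 36.0 in the same order, nearly all NCAM1, with 2 of 7 having a row. Erythroid and megakaryocyte markers (5 of 9 with a row) summed to 8.26 to 19.9 over all libraries, fibroblast and endothelial markers (5 of 8) to 2.22 to 11.6 and epithelial markers (4 of 7) to 0.378 to 1.33.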

How the data were processed

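Poly-A RNA of 6 SKM-1 libraries was sequenced as paired reads of 150 bases, per the labels' protocols. The submitters' processing notes name edgeR 3.22.5, HISAT2 2.0.5, DESeq2 1.20.0 and featureCounts 1.5.0-p3, and no genome build is given in the sources used here. The deposited tables, 1 for each treatment with both untreated libraries, hold a signal per gene: read counts divided by 1 factor per library, as the values show, since 100% come out whole (tolerance 0.001) at a fixed step. The authors also deposited log2 fold changes, p-values and adjusted p-values, and gene lengths in bases. Each table was scaled separately, so a common scale for all libraries was set with median-of-ratios factors from 23519 genes. For the VEM library the values also came out whole, but its step of 0.991 lies too near 1 for the check used to verify reads. Its total of 17252404 reads rests on that unverified step. Count tests were therefore run only without it.

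Genes averaging at least 10 were tested with limma 3.58.1 (trended variance, log2 of the value plus a pseudocount of 1), two-sided, with Benjamini-Hochberg adjustment over all genes tested and a threshold of 0.05. A fold change on that scale understates changes of low genes. Alternatives were other pseudocounts, filters, TMM and library-total scaling, count tests on the recovered reads (DESeq2 1.42.0 and edgeR 4.0.16), all 6 libraries in 1 fit and each library left out. The fits were tested on simulated data. Results for some genes are not reported here. The members and lists were chosen with earlier results of these data known. Named list genes are those called in any comparison and, beyond these, up to 3 per list with the largest absolute change in VEM+BOR against untreated; the genes most like FGR are the 5 with the highest r.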

Additional observations from a re-analysis of the deposited data

Results flagged for a closer look

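CSK was picked out by the position of single libraries, and neither change passed a test: the VEM library was below both untreated libraries (3646, against 3751 and 4549), and the VEM+BOR library was above both BOR libraries (4361, against 4233 and 4140.2). The difference between the changes was 0.24 on the log2 scale (standard error 0.74) and did not pass a test in a fit over all 6 libraries (limma adjusted p = 1.0).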

How the results depend on the processing

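No paired analysis was possible because replicate numbers were given in accession order and pair no libraries, and the VEM and VEM+BOR groups hold 1 library each. Across alternatives, 601 log2 changes of members and named genes kept their direction and their side of the threshold, 14 came to pass it, 11 no longer did and 24 turned sign. The count of genes past the threshold depended on the setting. In VEM against untreated it was 7, and 0 with no filter, 15 with TMM factors, 40 with library totals, 0 with all 6 libraries in 1 fit, 17 in that fit without BOR 1 and 0 without either untreated library; 1 member, FGR, passed with library totals. In VEM+BOR against untreated it was 30, and 0 with no filter, 82 with TMM factors, 88 with library totals, 87 with edgeR, 64 with DESeq2, 0 with all 6 libraries, 52 in that fit without BOR 1 and 0 without either untreated library. The member count there was 1, and 0 with no filter, with all 6 libraries and without either untreated library; FGR was 3.32 with no filter (adjusted p = 0.967), 3.33 with all 6 libraries and 2.80 to 3.86 without an untreated library. In BOR against untreated it was 0, DESeq2 gave 35 and leaving out a library 0 to 4008 genes and 0 to 1 members, the top from BOR 2 alone. In VEM+BOR against BOR it was 0, DESeq2 gave 3 and leaving out a library 0 to 3599 genes and 0 to 1 members, FGR 1.95 to 3.27. For VEM-containing libraries it was 34, and 2 with no filter, 8 with a mean of at least 50, 11 with TMM factors, 6 with library totals, 0 with all 6 libraries and 7 to 804 on leaving out a library, with 0 to 1 members and FGR 1.97 to 3.33. With library totals FGR in VEM was 2.02. The cause was not tested.

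The signs that turned with no library left out were FRK in VEM+BOR against untreated at -0.16 in edgeR and -0.14 in DESeq2, CSK in BOR against untreated at -0.044 with TMM factors, -0.27 with library totals and -0.066 in edgeR, LYN in VEM+BOR against BOR at -0.015 in DESeq2, FYN there at 0.026 with library totals, and BTK there at 0.014 with TMM factors, 0.22 with library totals and 0.010 in edgeR. Leaving out a library gave ranges that cross 0. For VEM against untreated they were LYN -0.062 to 0.35. For VEM+BOR against untreated they were BTK -0.48 to 0.070, CSK -0.061 to 0.22, FRK -0.71 to 0.97, PECAM1 -0.044 to 1.86. For BOR against untreated they were BTK -0.43 to 0.13, CSK -0.13 to 0.17. For VEM+BOR against BOR they were LYN -0.32 to 0.36, FYN -0.94 to 0.46, SYK -0.12 to 0.33, BTK -0.13 to 0.035. For VEM-containing libraries against untreated they were CSK -0.19 to 0.088. For the departure of VEM+BOR from the sum of VEM and BOR they were FGR -0.019 to 1.30. At these depths 3 reads are 0.162 to 0.174 RPM. The tests edgeR and DESeq2 were not run where the VEM library enters, for want of verified reads.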
